A study of Solanum pimpinellifolium with 6 samples.

Results

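The degradome part of the study consists of 3 libraries of cleaved RNA ends, 1 per temperature, out of 6 samples in all. The NT, MET and AET libraries came from leaves of the wild tomato LA2093 (Solanum pimpinellifolium), a heat-tolerant line, kept for 8 h at 26/18 °C (NT), at 33/33 °C (MET) or at 40/40 °C (AET), day/night. No group carried a transgene. The seedlings at 33/33 and 40/40 °C also received an extra watering, so that temperature and watering cannot be told apart. Leaves of 5 seedlings were mixed as 1 replicate and 3 replicates were taken per time point, but which of them went into each library is not stated. The other 3 samples are the small RNA (sRNA) libraries of the same temperatures, which give the levels of the guide miRNAs. Every site listed by the authors was taken, counting 1 transcript and 1 cleavage position as 1 site, so that 362 listed pairs of a miRNA and a site became 233 distinct sites on 219 transcripts. Of these sites, 220 belonged to conserved miRNAs and 13 to predicted miRNAs (names beginning with PC). The labelled tissue was not checked against marker genes, since the tables used here hold no mRNA levels.

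Plant miRNAs pair with their target mRNA almost along their whole length, and the argonaute protein AGO1 then cuts the target opposite the middle of the miRNA. The downstream piece of the mRNA keeps an uncapped 5′ end, and degradome sequencing reads these ends. A pile of ends at the predicted base is therefore the trace of cleavage, while scattered single ends also come from ordinary RNA decay. In leaves, the best known targets are transcription factors that set leaf shape and growth, such as the HD-ZIP III factors cut by miR166, the auxin response factors cut by miR160 and miR167, the growth-regulating factors cut by miR396 and the GRAS factors cut by miR171.

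The guides of the sites on which the results turn are printed from the deposited list, 5′ to 3′, with the seed (bases 2 to 8) in capitals. The first set are guides of textbook targets. The miR166 and miR171 families are each shown with 2 guides whose 5′ ends are offset on the same target, because their predicted cut sites are offset too.
spi-miR166a: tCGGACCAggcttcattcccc
spi-miR166a-3p_stu: gTCGGACCaggcttcattccc
spi-miR171a: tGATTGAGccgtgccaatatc
spi-miR171d: tTGAGCCGcgccaatatcacg
spi-miR160a: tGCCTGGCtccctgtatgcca
spi-miR396b: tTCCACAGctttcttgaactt
spi-miR482b: tCTTGCCTacaccgcccatgcc
spi-miR482b-3p_stu: tCTTACCGattccccccattcc
spi-miR159a_cpa: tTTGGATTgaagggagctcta
spi-miR168a-5p: tCGCTTGGtgcaggtcgggac
spi-miR403-3p: cTAGATTCacgcacaagctcg
The second set are the guides of the called sites outside the textbook pairs, and of the 2 sites with many tags listed under spi-miR8029_stu.
spi-miR9470-3p: tTTGGCTCatggattttagc
spi-miR384-5p_stu: tTGGCATTctgtccacctcc
spi-miR2275c-5p_ata: aGTGTTGGatgggaccaca
spi-miR6478_ptc: cCGACCATagctcagttgg
spi-miR8029_stu: aTTTTTATttgttttggagc

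No seed is shared within the 2 printed sets. Over all 162 guide sequences there were 117 different seeds, and 94 of them belonged to 1 guide only. The seed TTGGATT was shared by 6 guides of the miR159 family and CGGACCA by 4 guides of the miR166 family. The listed cleavage base lay opposite guide base 10 in 305 of the 362 pairs, opposite base 11 in 30 and opposite base 9 in 27. By number of sites, miR396 led with 18, followed by miR156, miR166 and miR172 with 14 each and miR482 with 13.

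The libraries held 11774232, 11471728 and 10853424 raw reads (NT, MET and AET), and very few of them fell on the listed sites. Their sum was 270.33 reads for NT, 228.50 for MET and 283.83 for AET, or 23, 19.9 and 26.2 in every 1000000 reads. One read was worth 84.9, 87.2 and 92.1 TPB, the unit of the deposited values (tags scaled to a library total of 1000000000), and all reads below are TPB divided by these values. A sum can be fractional because a tag that matched several transcripts was split between them, which left 22 sites with values that are not whole reads. At 142 of the 233 sites (60.9%), no library held more than 1 read, and only 17 sites reached 5 reads in a library. Intervals cover counting error only, and no difference could be checked against replicates. A tag count depends on the amount of the transcript as well as on its cleavage, and on how many cells express it, and these cannot be told apart here.

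Sites were detected in similar numbers at the 3 temperatures. NT tags were found at 130 sites, MET tags at 113 and AET tags at 118. A core of 38 sites had tags in all 3 libraries, while 54 sites were specific to NT, 40 to MET and 49 to AET by the presence of a tag. A further 21 sites were shared by NT and MET, 17 by NT and AET and 14 by MET and AET. The 38 core sites were 29.2%, 33.6% and 32.2% of the sites of the NT, MET and AET libraries, and held 52.5%, 56.9% and 62% of their reads.

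The single-library sites were nearly all single reads. No more than 1 read was seen at 45 of the 54 NT sites, at 36 of the 40 MET sites and at 38 of the 49 AET sites. The highest single-library site held 4 reads for NT, 2 for MET and 3 for AET, against up to 22 reads at a core site. A library without a tag allows up to 3 reads, that is 255, 262 and 276 TPB for NT, MET and AET, so that none of these sites can be called absent from the other temperatures at this depth.

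**Figure D1:**
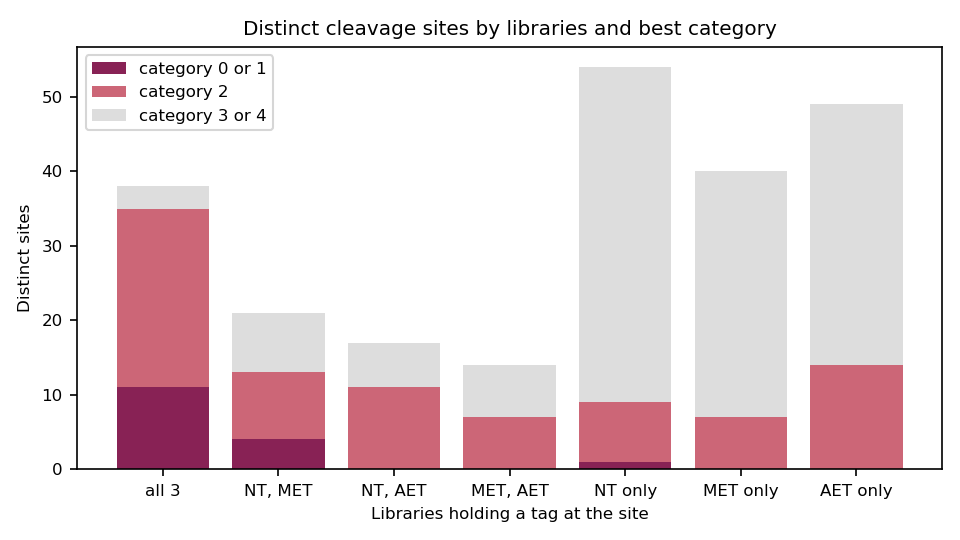
Number of distinct cleavage sites (vertical axis) by the libraries that hold a tag at the site (horizontal axis), split by the best category of the site in any library. Of the 38 sites seen in all 3 libraries, 35 were of category 0 to 2, against 9 of 54, 7 of 40 and 14 of 49 of the sites seen in the NT, MET or AET library alone.

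The authors graded each site by its place among all tags on its transcript. In category 0 the site is the single highest position, in category 1 it shares the highest level with another position, in category 2 it lies above the median, in category 3 at or below the median, and in category 4 it has 1 raw read. Categories 0 to 2 are called strong here. Strong sites numbered 50 of 130 for NT (38.5%, exact binomial 95% interval 30.1 to 47.4%), 46 of 113 for MET (40.7%, 31.6 to 50.4%) and 52 of 118 for AET (44.1%, 34.9 to 53.5%). The 3 intervals overlap widely. In all, 96 sites were strong in at least 1 library and 13 in all 3. Most strong sites were of category 2, with 40, 38 and 43 in the NT, MET and AET libraries. Although category 4 is the grade for 1 raw read, 3 MET sites and 3 AET sites listed as category 2 rested on 1 read or less, and the 3 MET ones are RLP32 sites of the guide spi-miR6022.

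Category 0 or 1 was much rarer, and it held almost only textbook targets. It was given to 10 NT sites, 8 MET sites and 9 AET sites, and to 16 sites in all. A list of textbook pairs of guide family and target covered 66 of the 233 sites, and 14 of these 16. The 16 sites had a median alignment score (the penalty for imperfect pairing, from 0 for a perfect match to 4, the highest listed) of 3, and 13 of them scored 3 or less (81.2%), against 25 of 80 sites of category 2 at best (31.2%) and 43 of 137 of categories 3 and 4 (31.4%). Category 2 sites thus paired no more closely with their guides than the weakest sites. The highest level of the guide in the sRNA libraries followed the same split, with a median of 2527 normalized reads for category 0 or 1, 8.36 for category 2 and 13.3 for categories 3 and 4. These are descriptions, since grade, score and guide were all used by the authors to list the sites.

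**Figure D2:**
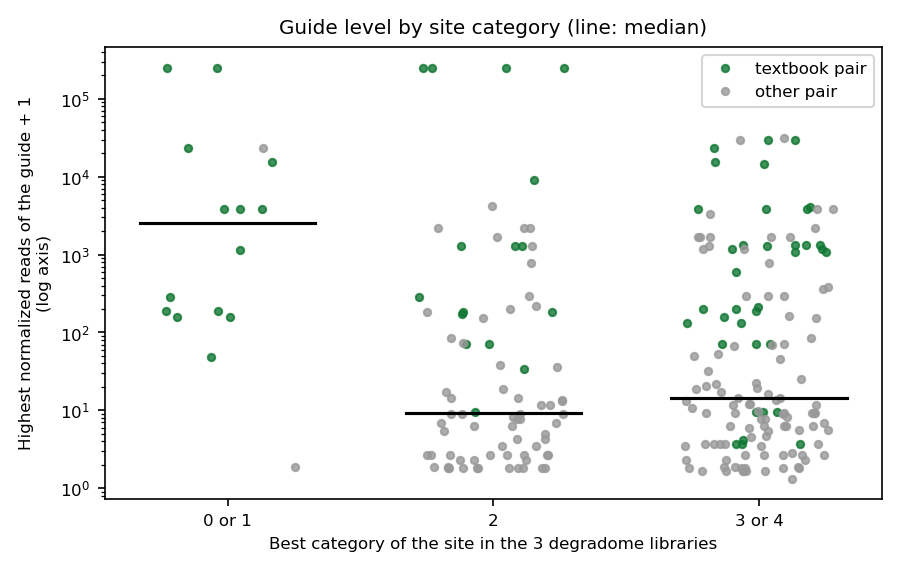
Highest normalized reads of the most abundant guide in the 3 sRNA libraries, plus 1 (vertical log axis), for each of the 233 sites by its best category (horizontal axis), coloured by whether guide and target are a textbook pair. Black lines are medians, at 2527, 8.36 and 13.3 normalized reads before 1 is added, and the single category 0 or 1 site with a guide near 0 is CPI1.

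Category 0 or 1 was kept at every temperature by 5 of the 16 sites. Both lead PHB sites, ARF17 and the GRF5 sites on Solyc08g075950 and Solyc12g096070 were graded so in all 3 libraries, and the PHB site on Solyc02g069830 and ARF17 were of category 0 throughout. The HAM3 site on Solyc11g013150 was of category 0 in the NT and AET libraries and of category 2 in the MET library. Another 4 sites had the grade in the NT library alone, namely ARF16, AGO2 and the DCDR sites on Solyc02g036270 and Solyc04g005540. In the MET library alone it was given to DR, DUO1 and the HAM3 site on Solyc08g078800, and in the AET library alone to GRF1, CPI1 and Solyc12g014120, which has no symbol. Grades seen at a single temperature rested on 2 to 6 reads, except for CPI1 with 12.

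Against the NT library, 2 sites were called higher in the MET library and none lower, and 3 sites were called higher in the AET library and none lower. A call required p of 0.05 or less by chi-square and also by Fisher's exact test (two-sided, on reads at the site against all other reads of the library), with a log2 ratio of 1 or more in either direction, and a site without reads in 1 of the 2 libraries counted as past that ratio. The higher calls were 1.09% of 184 sites with a read in MET or NT, and 1.55% of 193 sites with a read in AET or NT, and lower calls were 0% of both. Over all sites, TPB in the MET library were below NT at 95 sites and above at 89, and TPB in the AET library were above NT at 101 sites and below at 92. Sites with equal reads, 13 in MET and 17 in AET, count as above NT in these splits. By reads, MET had more than NT at 76 sites and fewer at 95, and AET had more at 84 and fewer at 92. Only the direction of the AET split thus turns on the equal sites. With totals from the listed sites, the AET library was above NT at 84 sites and below at 109, and the MET split was the same. The median log2 ratio of the sites detected on both sides was 0.04 for 59 sites in MET against NT and 0.12 for 55 sites in AET against NT, which are the values that equal reads give. No call held when the p-values of Fisher's exact test were adjusted over all sites, where the lowest adjusted p was 1 for MET and 0.803 for AET. At this depth a site without NT reads was called from 5 reads in the heat library, a site with 1 NT read from 7, and a site lost from the heat library only if it had 6 NT reads. Both comparisons share the NT library.

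Of the 5 called sites, only the GRF5 site is a textbook pair. GRF5 is a growth-regulating factor, one of a family of transcription factors that keep leaf cells dividing and that miR396 cuts. At position 332 of Solyc12g096070 (chromosome 12) there were 2 reads in NT, 10 in MET and 6 in AET. MET was called higher than NT, with a log2 ratio of 2.36 (exact 95% interval 0.13 to 5.59, Fisher's exact test p = 0.0209), and AET against NT was not called, with a log2 ratio of 1.70 (-0.78 to 5.04, p = 0.164, same test). The site moved from category 1 in the NT library to category 0 in both heat libraries. Its guide spi-miR396b stood at 2619, 3903 and 3545 normalized reads (NT, MET, AET sRNA), so that guide and site were both lowest in NT.

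NFS1 carried the most tags of any site in the AET library. NFS1 encodes a cysteine desulfurase, which takes sulfur from cysteine for the building of iron-sulfur clusters. Position 467 of Solyc02g091900 (chromosome 2) had 6 reads in NT, 12 in MET and 18 in AET. The log2 ratio was 1.04 for MET against NT (-0.49 to 2.74, Fisher's exact test p = 0.162), which was not called, and 1.70 for AET against NT (0.31 to 3.32, p = 0.0125, same test), which was. Its guide spi-miR9470-3p had 1244, 2168 and 1635 normalized reads (NT, MET, AET). The site was of category 2 in every library, so that another position of the transcript always held more tags.

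IIL1 encodes the large subunit of isopropylmalate isomerase, an enzyme of leucine synthesis. Position 535 of Solyc03g005730 (chromosome 3) rose from 1 read in NT to 9 in AET, with 5 in MET. AET was called (log2 ratio 3.29, 0.44 to 8.74, p = 0.00909 by Fisher's exact test) and MET was not (2.36, -0.80 to 7.92, p = 0.12, same test). The guide spi-miR384-5p_stu stood at 775, 770 and 546 normalized reads (NT, MET, AET) and was thus lowest where the site was highest.

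CPI1, the cyclopropyl isomerase of sterol synthesis, was high in the AET library alone. Position 135 of Solyc12g098640 (chromosome 12) had 2 reads in NT, 1 in MET and 12 in AET, and was called in AET against NT (ratio 6.51, with an interval of 0.54 to 5.90 on the log2 scale, p = 0.00569 by Fisher's exact test). It reached category 0 in the AET library from category 2 in NT and category 4 in MET. Its only listed guide, spi-miR2275c-5p_ata, was hardly detected, with 0, 0 and 1 raw reads in the NT, MET and AET sRNA libraries.

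The fifth call was emb1075, annotated as a pyridoxal phosphate (PLP)-dependent transferase. Position 144 of Solyc04g071140 (chromosome 4) had no read in NT, 5 in MET and 3 in AET. MET was called (p = 0.0293 by Fisher's exact test), although the exact 95% interval of its log2 ratio starts at -0.09 and has no upper end. Against a floor of 3 NT reads the ratio is 1.71, which is below the fold that sites with NT reads had to reach. It is listed with 2 guide sequences of the name spi-miR6478_ptc, which were highest in different sRNA libraries. The more abundant one, printed above, had 12.6, 2.50 and 4.04 normalized reads, and the other had 0.665, 3.33 and 5.39. The guides of NFS1, IIL1, CPI1 and emb1075 all paired with the highest listed alignment score of 4, as did those of 110 of all 233 sites (47.2%). The authors' CleaveLand p-values of the degradome match were 0.725 or more for NFS1 and 0.276 or more for IIL1. For emb1075 they were 0.384 in MET and 0.394 in AET. CPI1 had 0.868, 0.929 and 0.0308 in NT, MET and AET, and GRF5 had 0.0212, 0.0235 and 0.0232.

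**Figure D3:**
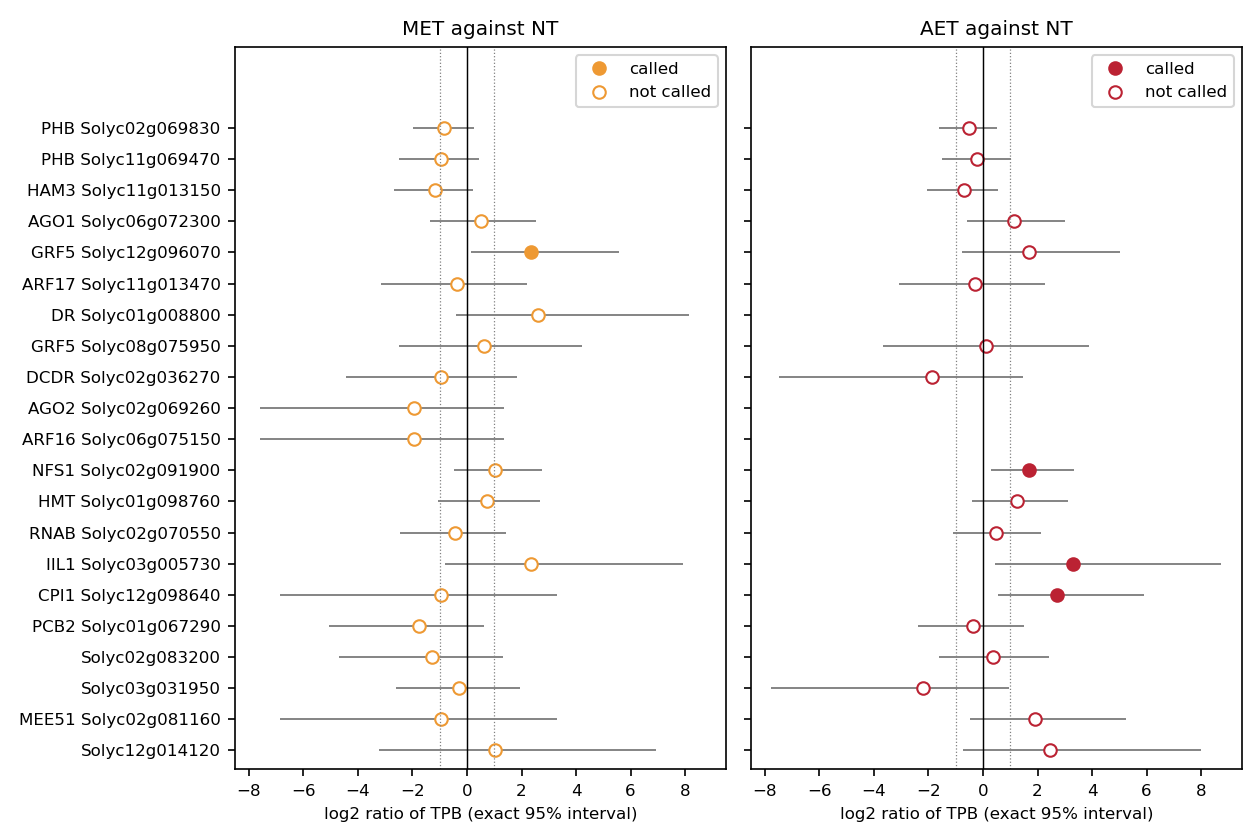
Log2 ratio of TPB with its exact 95% interval (horizontal axis) for leading sites, MET against NT (left) and AET against NT (right). Sites have at least 5 reads over the libraries of at least 1 comparison and tags on both sides of at least 1, and are drawn in both panels. The called MET site emb1075 has no NT tag and is not drawn. Filled points are called, dotted lines mark a log2 ratio of 1 in either direction, and a ratio with a library at 0 has no point. GRF5 is the filled point on the left, and NFS1, IIL1 and CPI1 are those on the right.

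Among the textbook targets, the HD-ZIP III transcription factors (listed as PHB), which set the upper side of the leaf, carried the most tags. Their 11 sites on 6 transcripts summed to 48 reads in NT, 29 in MET and 27 in AET. None was called in either comparison, beside 1.09% of sites in MET and 1.55% in AET over all sites. The median log2 ratio was -0.90 over the 8 sites seen in both MET and NT and -0.23 over the 3 seen in both AET and NT, beside 0.04 and 0.12 over all sites. The leading site, at position 629 of Solyc02g069830, held 22 reads in NT, 12 in MET and 14 in AET. The log2 ratios were -0.84 for MET (-1.99 to 0.24, Fisher's exact test p = 0.123) and -0.53 for AET (-1.61 to 0.50, p = 0.319, same test), both within counting error. Position 571 of Solyc11g069470 likewise had its highest value in NT, with 14, 7 and 11 reads (NT, MET, AET), and neither heat was called. These 2 sites held 76.9% of the reads of the group.

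Of the HD-ZIP III tags, 89.4% lay at the 6 sites listed under guides with the main miR166 seed, CGGACCA. The other 5 sites lay 1 or 2 bases downstream, under guides whose 5′ end starts earlier, such as spi-miR166a-3p_stu. They held 5 reads in NT, 4 in MET and 2 in AET, against 43, 25 and 25 at the main bases. The main guide spi-miR166a had 252273, 185779 and 199458 normalized reads (NT, MET, AET), and spi-miR166a-3p_stu had 8.64, 0.417 and 0.898. Summed tags were thus highest in NT at the main and at the downstream bases alike, and so were the levels of these 2 guides. The sites on Solyc03g120910, Solyc08g066500 and Solyc12g044410 each had 1.67 reads in NT, 0.67 in MET and 0 in AET, since they shared the same tags. Together they make 5 reads in NT, 2 in MET and 0 in AET (Fisher's exact test p = 0.0635 for AET, not called), and these 3 sites cannot be told apart.

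The GRAS factors (listed as HAM3), which keep the shoot meristem undifferentiated, showed a like order of summed reads. Their 4 sites summed to 20 reads in NT, 12 in MET and 11 in AET. None was called, beside 1.09% of sites in MET and 1.55% in AET over all sites. The median log2 ratio was 1.04 over the 3 sites seen in both MET and NT. Over the 2 seen in both AET and NT it was 0.20. The highest sum in NT rested on 1 site. Position 389 of Solyc11g013150 had 16, 7 and 9 reads (NT, MET, AET), with a log2 ratio of -1.16 for MET (-2.68 to 0.21, Fisher's exact test p = 0.0938) and -0.71 for AET (-2.07 to 0.55, p = 0.317, same test). Its guide spi-miR171d had 47.9, 22.1 and 28.7 normalized reads, in the same order as the tags. On Solyc08g078800 the perfectly paired spi-miR171a site at position 407 went from 1 read in NT to 3 in MET and 0 in AET. Solyc01g090950 had tags at 2 bases, each listed under several miR171 guides. Position 1578, with spi-miR171e as its most abundant guide, held 1, 2 and 2 reads. Position 1581, with spi-miR171a as its most abundant guide, held 2 reads in NT and none at either heat.

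The auxin response factors, which switch auxin-responsive genes, had 9, 10 and 8 reads at 5 sites (NT, MET, AET). None of these was called, beside 1.09% of sites in MET and 1.55% in AET over all sites. Of the miR160 targets, ARF17 kept 4, 3 and 3 reads in NT, MET and AET, ARF16 went from 4 reads in NT to 1 in MET and 0 in AET, and ARF10 had 1 read in AET alone. The guide spi-miR160a had 109 normalized reads in NT, 158 in MET and 144 in AET. The 2 ARF8 transcripts, targets of miR167, each had 0.50 reads in NT, 3 in MET and 2 in AET. Summed over both, the log2 ratio was 2.62 for MET (-0.42 to 8.15, Fisher's exact test p = 0.0669) and 2.12 for AET (-1.22 to 7.74, p = 0.201, same test). All 3 sites with a miR167 guide had more reads at both heats than in NT, and none was called. Over all sites, 76 of 184 had more reads in MET than in NT, and 84 of 193 had more in AET. The 2 ARF8 sites had the same split values, so they are not separate evidence. The third site, O-FucT, is no auxin response factor and had 1, 2 and 3 reads in NT, MET and AET. TIR1, an auxin receptor cut by miR393, had 3 reads in NT and 1 at each heat.

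The growth-regulating factors summed to 7 reads in NT, 15 in MET and 11 in AET over 6 sites, of which 1 was called higher in MET and none in AET, beside 1.09% and 1.55% over all sites. Without the called GRF5 site there remained few reads. GRF5 on Solyc08g075950 held 2, 3 and 2 reads (NT, MET, AET), GRF1 held 1, 1 and 2, and the other 3 sites never had more than 1.

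The small RNA machinery is itself under miRNA control, AGO1 through miR168, AGO2 through miR403 and the dicer DCL1 through miR162. AGO1 had 5 reads in NT, 7 in MET and 10 in AET at position 388 of Solyc06g072300. The log2 ratios of 0.52 (-1.35 to 2.52) and 1.12 (-0.57 to 3.02) were not called (Fisher's exact test p = 0.576 for MET and 0.197 for AET). AGO2 went the other way, with 4, 1 and 0 reads, and was not called either. The AGO1 guide spi-miR168a-5p had 9154, 6394 and 8439 normalized reads, and the AGO2 guide spi-miR403-3p had 974, 1150 and 1096. DCL1 had 1 read each in NT and AET.

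NBS-LRR genes are intracellular immune receptors, and miR482 cuts many of them at the conserved P-loop. Their 10 sites held 12 reads in NT, 9 in MET and 3 in AET. None of 8 tested sites was called in either comparison, beside 1.09% in MET and 1.55% in AET over all sites. The sum rested on 3 sites. DR (Solyc01g008800, position 694) had 1, 6 and 0 reads in NT, MET and AET, with a log2 ratio of 2.62 for MET against NT (-0.42 to 8.15, Fisher's exact test p = 0.0669). DCDR on Solyc02g036270 had 4, 2 and 1 reads, and DCDR on Solyc04g005540 had 4 reads in NT and none at either heat (Fisher's exact test p = 0.125 for MET and 0.126 for AET). The other 7 sites never exceeded 1 read. The guide spi-miR482b-3p_stu, shared by DR and the second DCDR site, had 126, 186 and 154 normalized reads, so that 2 sites of 1 guide went in opposite directions between NT and MET.

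Receptor-like proteins and kinases at the cell surface had 12 sites with 2.83 reads in NT, 6 in MET and 1 in AET. Tags of 5 sites under the predicted miRNA PC-49-3p were shared between transcripts at 0.17 reads each, in NT alone. LRR-TPK, the target of predicted miRNA PC-52-5p, had 2 reads in MET alone.

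Several textbook groups were close to the limit of detection. The SPL factors, which time the change from juvenile to adult growth under miR156, had 6 sites with 2, 2 and 3 reads in NT, MET and AET, none above 1 read. The 2 TCP sites of miR319 had 1 read in NT, 0 in MET and 1 in AET. The AP2-like factors, which miR172 cuts and which delay flowering, had 8 sites with 8, 3 and 6 reads, of which RAP2.7 on Solyc04g049800 (position 1117) held 3, 0 and 2. Of the MYB factors, DUO1 had 1, 2 and 1 reads and the other 3 sites 1 read at most. The superoxide dismutases CSD1 and CSD3, which detoxify superoxide, had 1, 1 and 1 reads and 1, 3 and 1 reads, CSD3 under a guide other than miR398. The guide spi-miR398b-3p_stu of CSD1 had 214, 157 and 107 normalized reads. No site of these lists was called, beside 1.09% of sites in MET and 1.55% in AET over all sites.

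**Figure D4:**
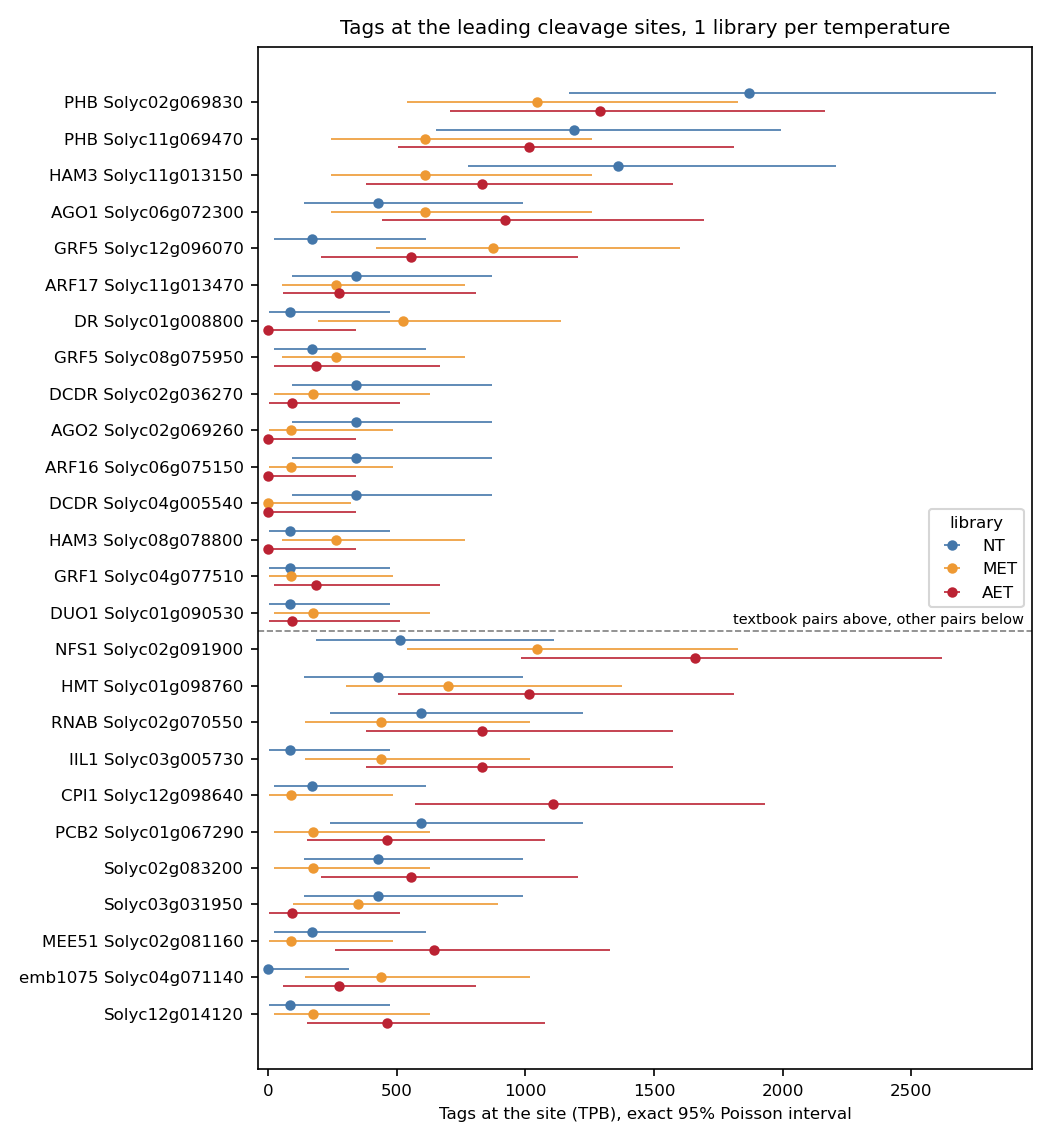
TPB (horizontal axis) with exact 95% Poisson intervals at the 26 sites with category 0 or 1 or with at least 5 reads in a library, coloured by library (NT, MET, AET), with 15 textbook pairs above the dashed line and 11 other pairs below. The 2 lead PHB sites and the HAM3 site on Solyc11g013150 have their highest value in NT, and NFS1, IIL1 and CPI1 theirs in AET.

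Metabolic genes outside the textbook pairs held part of the remaining reads. The list of carbon and chlorophyll metabolism, with 12 sites, held 18 reads in NT, 5 in MET and 16 in AET. It had no call, beside 1.09% of sites in MET and 1.55% in AET over all sites. PCB2, which makes monovinyl chlorophyll precursors, had 7, 2 and 5 reads (log2 ratio -1.77 for MET, -5.07 to 0.62, p = 0.18 by Fisher's exact test). PIFI, a protein of chloroplast electron flow that was named after its values were seen, had 4 reads in NT and none at either heat. The photorespiratory enzyme HPR held 1, 0 and 3 reads. Beside NFS1, the sulfur list had only APS1, an ATP sulfurylase and textbook target of miR395, with 1 read in NT. Of 5 cell wall sites, GH31 had 4, 0 and 0 reads, the cellulose synthase CESA3 had 0, 2 and 3, and the callose synthase GSL03 had 1, 2 and 2. The chaperone list had 3 sites, with HSP60-3A at 1 read in AET, HSP70 at 1 read in MET and the disulfide isomerase PDIL1-1 at 2 reads in AET, so that 0, 1 and 3 reads were seen in NT, MET and AET. CDD (Solyc11g006170), annotated with a DnaJ chaperone domain but in no list and named after its values were seen, had 1 read in AET.

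**Figure D5:**
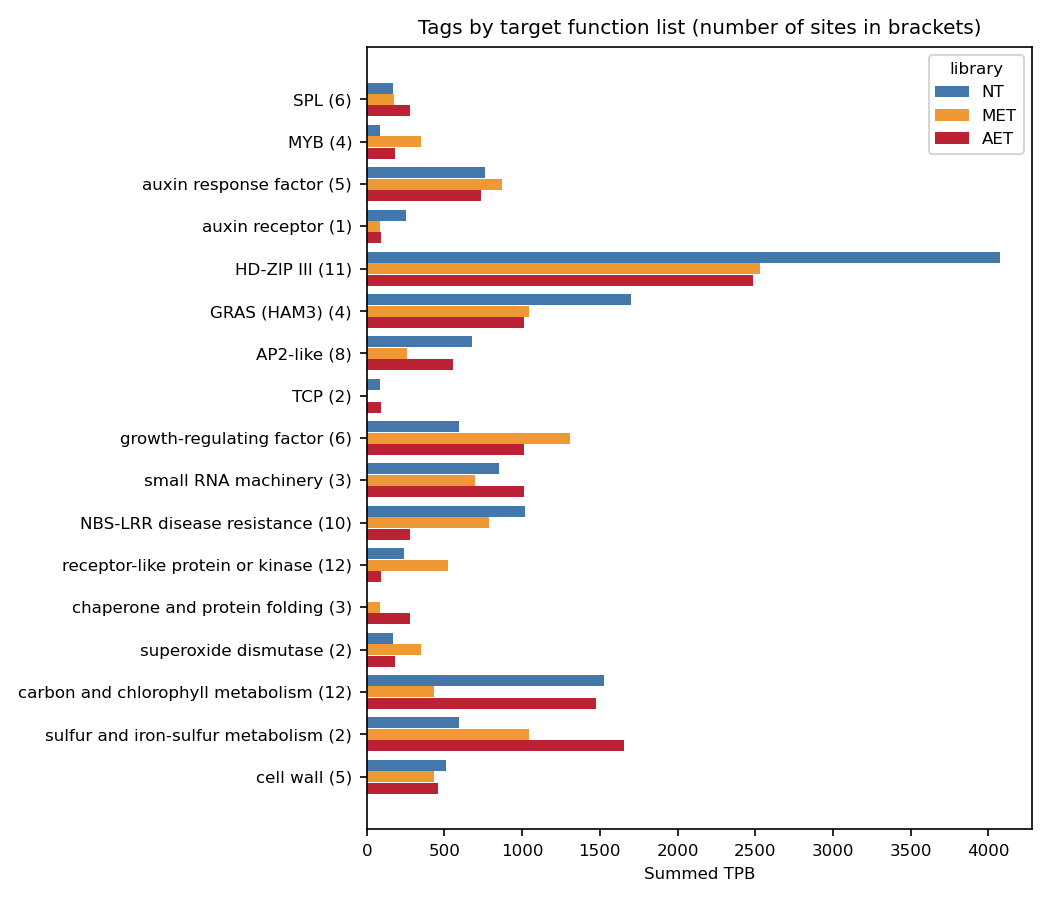
TPB summed over the sites of each target function list (horizontal axis), with the number of sites in brackets, in the NT, MET and AET libraries. HD-ZIP III, with 48, 29 and 27 reads, and GRAS factors, with 20, 12 and 11, were highest in NT, growth-regulating factors were highest in MET and the sulfur list, which is nearly all NFS1, was highest in AET.

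The sites in no list included several with many tags. HMT, annotated as a heavy metal transport protein, had 5, 8 and 11 reads at position 124 of Solyc01g098760 in NT, MET and AET, and the AET ratio was not called (log2 ratio 1.25, -0.39 to 3.13, p = 0.132 by Fisher's exact test). Position 123, under the same guide name, went the other way with 3, 1 and 1 reads, and position 130 had 1, 0 and 2. Summed with position 123, the MET log2 ratio fell from 0.72 to 0.21. RNAB, an RNA-binding protein, had 7, 5 and 9 reads, and Solyc02g083200, without a symbol, had 5, 2 and 6. MEE51, a phosphofructokinase of glycolysis by its annotation, had 2, 1 and 7 reads (log2 ratio for AET 1.92, -0.47 to 5.23, p = 0.0974 by Fisher's exact test). Solyc03g031950, without a symbol, had 5, 4 and 1. Solyc12g014120, listed under miR159, had 1 read in NT (category 4), 2 in MET (category 2) and 5 in AET (category 0), and was not called (log2 ratio for AET 2.44, -0.72 to 8.00, Fisher's exact test p = 0.111). AR401, the methyltransferase under the predicted miRNA PC-69-3p, had 4, 2 and 4 reads and was the only site of a predicted miRNA seen in all 3 libraries.

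Summed reads were highest in NT over the textbook pairs and in AET over the other pairs, a difference that was not tested. The 66 textbook sites summed to 124 reads in NT, 97 in MET and 86 in AET, and the 167 other sites to 146.33, 131.50 and 197.83. Calls fell on 1 of 58 tested textbook sites in MET and 0 of 54 in AET, and on 1 of 126 and 3 of 139 other sites, beside 1.09% and 1.55% over all sites. In both groups the median log2 ratio was 0.04 for MET and 0.12 for AET.

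Guides of many other pairs were scarce in the matched sRNA libraries. The most abundant guide reached 10 normalized reads in a library for 58 of the 66 textbook sites (87.9%) but for 71 of the 167 other sites (42.5%). RNAB and Solyc02g083200 were listed only under spi-miR8029_stu, which had 0, 1 and 0 raw reads in the NT, MET and AET sRNA libraries. PCB2 and MEE51 were listed under spi-miR396b-p5_osa, with 0, 2 and 1. Across the sites with at least 5 reads over the libraries compared, tags on both sides and a guide detected in both, the log2 ratio of the guide and that of the site had Spearman's rho 0.43 over 21 sites in MET against NT and 0.14 over 18 sites in AET against NT (Pearson's r 0.26 and 0.15). The points share libraries and some share a guide, so these are descriptions. Guide and site lay on the same side of NT at 13 of 21 and at 10 of 18 sites.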

How the data were processed

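Degradome and sRNA libraries of NT, MET and AET leaves were sequenced once each. The authors mapped degradome tags to iTAG tomato transcripts and listed sites with CleaveLand. For each pair, their deposited tables give tags scaled to a fixed library total (TPB, a signal), the alignment score, the category and the p-value of the degradome match. The deposited raw reads of the miRNA list are estimated counts, because the authors shared a multiply mapped read among its places. The deposited normalized reads are a signal, scaled by the authors with 1 factor per library.

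TPB were divided by the value of 1 tag and rounded for the tests, 0.5 upwards (library totals 1000000000 TPB). Ratios used TPB, with exact conditional binomial 95% intervals, and a floor of 3 reads served only to bound the fold of a library at 0, which in the calls counted as past the fold. The thresholds were those of the paper, applied to these reads and library totals. Whole reads were judged to within 0.01. The main guide of a site was the one with the most normalized reads over the 3 libraries. Chromosomes were read from the locus names. Positions are bases of the transcript, and exons and UTRs were not analysed here.

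The members, the 17 function lists and the textbook pairs were chosen with earlier results of these data known. Named sites were those called, of category 0 or 1, strong in all 3 libraries, with at least 5 reads or among the 10 highest of a library, plus up to 3 sites of each list without one. After the files were read, 6 symbols (ARF3, SAM, HMT, CAO, PMI and TIM) were taken out of lists because their annotation gives another gene. The calls were also run on simulated reads, at the depth of these libraries and at a depth far above it. Recovery was required only at the greater depth. How many changes the calls found at the depth of these libraries is not reported here. Alternatives covered library totals, tests, thresholds, merged or split sites, scores and categories. Transcript sequences were not used here. The authors' comparison columns (log2 ratio and p-value of miRNAs) were not used. Tests were run with scipy 1.17.1 and numpy 2.4.6 under Python 3.11.15, tables with pandas 2.3.3 and plots with matplotlib 3.10.9.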

Additional observations from a re-analysis of the deposited data

Results flagged for a closer look

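At 3 of 179 sites with a read in either heat library, the AET and MET libraries differed by the same calling rule. With 1 library per temperature, this compares single libraries and not temperatures. DR and MEE51 were not called against NT at either heat. None held after adjustment over the 179 sites (lowest adjusted p = 0.255, Fisher's exact test), and the comparison was chosen after the data were seen. CPI1 had 1 read in MET and 12 in AET (log2 ratio 3.66, 0.91 to 9.08, p = 0.00142 by Fisher's exact test), with 2 in NT. DR had 6 reads in MET and 0 in AET (Fisher's exact test p = 0.0316), with 1 in NT. MEE51 had 1 read in MET and 7 in AET (log2 ratio 2.89, -0.07 to 8.38, p = 0.0344 by Fisher's exact test), with 2 in NT, and its interval just includes equality. The guides of CPI1 and MEE51 had at most 2 raw reads in any sRNA library. Their part in the result was not tested.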

How the results depend on the processing

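No paired analysis was possible because each temperature has 1 degradome library, and for the same reason none could be left out in turn. The 2 MET and 3 AET calls both became 0 with Benjamini-Hochberg adjustment. With alignment scores of 3 or less, 1 MET call (GRF5) and 0 AET calls were left, since the other called sites score 4. With a floor of 3 reads for a library at 0, MET kept 1 call, as emb1075 fell below the fold. The chi-square test alone passed at 7 MET sites and 3 AET sites. Counting every listed pair gave 5 MET calls, because GRF5 is listed with 3 guides and emb1075 with 2. Library totals from listed sites, Fisher's exact test alone, no fold threshold, a minimum of 5 reads, sites of whole reads only, sites up to 2 bases apart summed and strong sites only left 2 and 3 calls. The 38 sites seen in all 3 libraries became 74 as listed pairs, 17 at scores of 3 or less, 13 with 2 reads in each library and 23 with a guide of at least 10 normalized reads (an alternative chosen after the data were seen). The 50, 46 and 52 strong sites (NT, MET, AET) became 90, 87 and 85 as listed pairs, 21, 24 and 17 at scores of 3 or less, 28, 30 and 28 with such guides, and 10, 8 and 9 with a degradome p-value of 0.05 or less, which left category 0 or 1 alone. The 10, 8 and 9 sites of category 0 or 1 became 27, 28 and 30 as listed pairs (chosen after the data were seen) and stayed within 1.5 times under the score, degradome p-value and guide alternatives. All category 0 or 1 sites and no category 2 sites had a degradome p-value of 0.05 or less, so that alternative is no separate check. With totals from listed sites, equal reads in AET and NT changed from a log2 ratio of 0.12 to -0.07, which turned the 17 sites with equal reads, among them 7 named and uncalled sites (RLP32 position 1201, CSD1, DUO1, AR401, AP2 position 1571, CSD3 and GRF5 on Solyc08g075950). AP2 position 1571 also turned, to -0.47, when summed with position 1572.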

Other observations

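Other sites of at least 3 reads lay on genes in no function list, and none was called. PLP, annotated as PAS / LOV protein B, had 4 reads in NT, 0 in MET and 3 in AET. An amino acid dehydrogenase (AAD) under spi-miR9470-3p, the guide of NFS1, had 4, 0 and 2 reads. The proton pump HA1 had 2, 3 and 1 reads. MAPR3, the target of predicted miRNA PC-59-3p, had 3 reads in AET alone.

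Gene ontology terms were given for 165 of 219 transcripts. The most frequent were protein binding (38 transcripts), ATP binding (35) and DNA-dependent regulation of transcription (25). Sites on the transcripts of the last term held 72.50, 55 and 53 reads in NT, MET and AET. The 11 transcripts of the term ADP binding held 12, 10 and 5 reads.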
